A study of Saccharomyces cerevisiae with 12 samples.

Results

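The RNA of the evolved strain MH34 was compared with that of its parent AAC in chemostats run at 0.2/h, the dilution rate, in 2 biological replicates of each strain, which are 4 of the 12 libraries of the series. All genes that passed a filter on low counts were compared, 6044 of the 7126 in the count table, of which 151 lie on chromosome III. AAC is a CEN.PK strain of Saccharomyces cerevisiae (MATa, MAL2-8c, SUC2) in which most of the host gene TPI1 is replaced by a KanMX4 marker. It carries a 2 µm plasmid that supplies the Schizosaccharomyces pombe POT1 gene in place of TPI1 and expresses an α-amylase, with the α-factor leader, from the TPI1 promoter and terminator. MH34 was isolated from AAC after UV mutagenesis and selection for secretion of the enzyme, so it shares the deletion and the plasmid with its control. Each strain is 1 isolate, and its mutations cannot be told apart by these counts. Both strains were grown aerobically at 30°C in the same defined medium with amino acids, in which glucose was limiting. No addition of ethanol is named for either strain at 0.2/h. The labels call the protein productivity low in AAC and medium in MH34, and the comparison asks which functions of the transcriptome accompany a strain selected for secretion.

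In a carbon-limited chemostat, the dilution rate sets the growth rate, and the residual glucose is low. Budding yeast under such conditions takes up glucose through high-affinity carriers of the HXT family, respires much of it, and expresses many genes that abundant glucose represses through the Snf1 and Mig1 pathway. Storage carbohydrates, metal uptake, and phosphate uptake are each under their own regulators, with Aft1 for iron, Mac1 for copper, Zap1 for zinc, and Pho4 for phosphate.

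The 4 libraries held between 8084162 and 9804653 counts. The log2 levels of the replicates correlated with a Pearson r of 0.991 in AAC and 0.99 in MH34 across genes, which are not independent replicates. The median absolute log2 difference between replicates was 0.116 in each strain, compared with a median absolute log2 fold change of 0.213 between the strains. The deleted gene TPI1 had 156, 179, 201, and 197 counts in AAC replicates 1 and 2 and MH34 replicates 1 and 2. Whether these reads come from remaining host sequence or from the TPI1 promoter and terminator on the plasmid was not tested. The a-specific genes STE2, MFA1, MFA2, BAR1, and STE6 had between 3086 and 9673 counts in every library, while the α-specific gene STE3 had between 170 and 332. The α-specific gene MF(ALPHA)1 had 8060, 3852, 13669, and 9519 counts, and as the plasmid carries the α-factor leader before the amylase gene, its reads cannot be told apart from those of the plasmid and check nothing.

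With edgeR's quasi-likelihood test and adjustment over all 6044 genes, 2000 genes (33.1%) differed between MH34 and AAC at an adjusted p under 0.05. Of these, 1052 (17.4%) were higher and 948 (15.7%) lower in MH34. A change of at least 2-fold was also present for 424 of them, 346 higher and 78 lower. The split depended on the scaling. With library size alone in place of TMM normalization, 1621 genes were higher and 493 lower, so that the share of higher genes among the calls rose from 52.6% to 76.7%, and the median log2 fold change of all genes moved from −0.01 to 0.11. Every level below is in CPM, the counts scaled to a common library size after TMM normalization, and every change is a log2 fold change of MH34 over AAC, which is relative to the other genes of the library. As each library comes from a whole culture, a lower level can mean fewer cells with the transcript or less RNA per cell, which cannot be told apart. Lists of genes are described by the number of members past the test beside the shares for all genes given here and by their median beside that of all genes, −0.01. In each direction where 0 members of a list are given below, at most 1 member had an unadjusted p under 0.05 in edgeR, and DESeq2 called at most 1. Where a call is said to be lost, the adjusted p is that of the same edgeR test with the named library left out.

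Chromosome III stood apart from the rest of the genome. Of its 151 genes, 133 (88.1%) were higher in MH34 and 0 lower, with 0 lower also at an unadjusted p under 0.05 or by DESeq2. Of the 5893 genes not placed on it, 919 (15.6%) were higher and 948 (16.1%) lower. Of these 5893, 5570 were placed on another nuclear chromosome. Of the 18 chromosome III genes that did not pass, all but 1 had a fold change above 0. The counts on its genes made up 2.22% and 2.16% of the AAC libraries and 4.22% and 4.26% of the MH34 libraries. The median log2 fold change of chromosome III was 0.99, or 1.98-fold, and that of the other nuclear chromosomes together was −0.02, a difference of 1.01. Between 1.5-fold and 2.5-fold lay 112 of its genes (74.2%), compared with 5.85% of the 5570 genes on the other nuclear chromosomes. The levels of MH34 and AAC did not overlap for 145 of its genes (96%), compared with 66.7% of the 5893 genes not placed on it and 67.5% of all genes. The medians of the other 15 chromosomes ranged from −0.075 on XIV to 0.035 on I. The number of copies of the chromosome was not measured in these files.

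The elevation ran along both arms. The median was 1.05 for the 58 genes left of the centromere and 0.96 for the 93 genes right of it. In consecutive windows of 20000 bases, the medians lay between 0.84 and 1.23, except at the right end, where the 4 genes beyond position 300000 had a median of 0.29 and values from 0.21 to 0.66. Genes near chromosome ends can have near-identical copies elsewhere, which leaves these 4 levels uncertain.

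**Figure D1:**
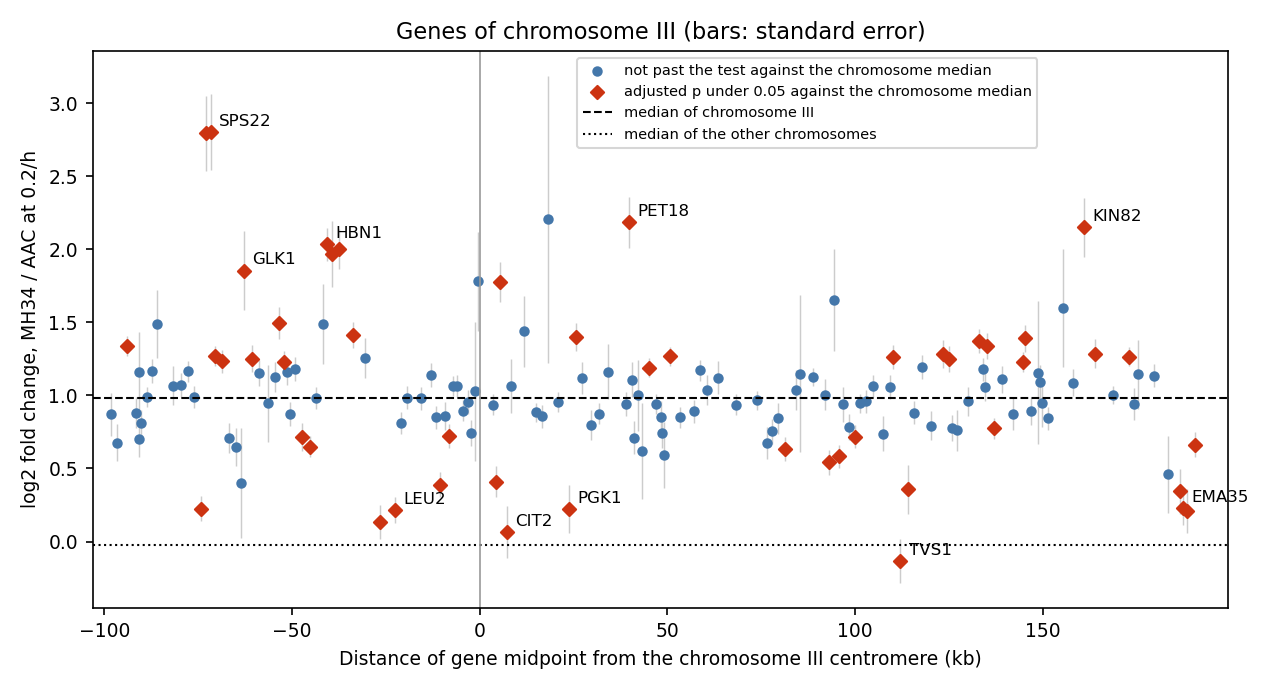
Log2 fold change of each tested chromosome III gene (MH34 over AAC at 0.2/h, y axis, bars are standard errors) against the distance of its midpoint from the centromere in kb (x axis). Points scatter around the dashed chromosome median of 0.99, far from the dotted median of the other chromosomes, and red diamonds are genes whose change differed from the chromosome median at an adjusted p under 0.05.

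Within this general rise, single genes were tested against the median of their chromosome, an alternative added after the data were seen. Of the 151 genes, 49 (32.5%) differed from it, 28 (18.5%) above and 21 (13.9%) below. This share was close to that of the genes not on chromosome III. Of those, 31.7% differed between the strains, 15.6% higher and 16.1% lower. The genes that passed farthest above it were SPS22 (YCL048W, chromosome III, 42165 to 43556, plus strand), known from sporulation, and its neighbour YCL048W-A (YCL048W-A). SPS22 rose from 2.45 and 1.75 CPM in AAC to 12.4 and 16.9 CPM in MH34 (log2 fold change 2.80, standard error 0.26, edgeR adjusted p = 1.7e-05). YCL048W-A rose from 5.68 and 4.26 CPM in AAC to 39.4 and 30.0 CPM in MH34 (log2 fold change 2.79, standard error 0.26, edgeR adjusted p = 3.4e-05). PET18 (YCR020C, chromosome III, 154012 to 154659, minus strand) rose from 26.4 and 18.5 CPM in AAC to 119 and 85 CPM in MH34 (log2 fold change 2.18, standard error 0.18, edgeR adjusted p = 1.2e-05). The protein kinase gene KIN82 (YCR091W) rose from 25.2 and 25.1 CPM in AAC to 125 and 98.6 CPM in MH34 (log2 fold change 2.15, standard error 0.20, edgeR adjusted p = 6.0e-05). The neighbours HBN1 (YCL026C-B), listed as a nitroreductase-like gene, and AGP1 (YCL025C), a broad-range amino acid permease, also lay far above. HBN1 had 26.4 and 29.2 CPM in AAC and 117 and 111 CPM in MH34 (log2 fold change 2.03, standard error 0.11, edgeR adjusted p = 7.5e-07), and AGP1 had 116 and 105 CPM in AAC and 376 and 513 CPM in MH34 (log2 fold change 2.0, standard error 0.14, edgeR adjusted p = 2.3e-06). These 6 genes were picked among those in which the libraries of the strains did not overlap. The acetate carrier gene ADY2 also had a high log2 fold change (2.2) but did not pass the test against AAC. Further above the chromosome median were the glucokinase gene GLK1 (1.85), the glutaredoxin gene GRX1 (1.5), the mitochondrial thioredoxin gene TRX3 (1.39), and the checkpoint gene MRC1 (1.34).

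The genes farthest below the chromosome median did not differ from AAC in the main test. TVS1 (YCR061W, chromosome III, 225563 to 227458, plus strand) had 54.8 and 43.1 CPM in AAC and 48.2 and 41.3 CPM in MH34 (log2 fold change −0.13, standard error 0.15, edgeR adjusted p = 0.52), a value −1.12 from the chromosome median. CIT2 (YCR005C, chromosome III, 120946 to 122328, minus strand), the peroxisomal citrate synthase, had 1403 and 1192 CPM in AAC and 1363 and 1349 CPM in MH34 (log2 fold change 0.06, standard error 0.18, edgeR adjusted p = 0.81). LEU2 (YCL018W, chromosome III, 91324 to 92418, plus strand), an enzyme of leucine synthesis, had 113 and 106 CPM in AAC and 120.2 and 134 CPM in MH34 (log2 fold change 0.22, standard error 0.09, edgeR adjusted p = 0.082). PGK1 (YCR012W, chromosome III, 137746 to 138996, plus strand), the phosphoglycerate kinase of glycolysis, had 5328 and 3799 CPM in AAC and 5697 and 4941 CPM in MH34 (log2 fold change 0.22, standard error 0.16, edgeR adjusted p = 0.32). The levels of MH34 and AAC overlapped for these genes except LEU2. The Ty element gene YCL019W (0.13) and the subtelomeric gene YCR101C (0.21) were the other 2 of the 6 lowest. Copies of Ty elements and of subtelomeric genes elsewhere in the genome are near-identical, which leaves the level of these 2 genes uncertain. HIS4, of histidine synthesis (0.71), and the phosphate carrier gene PHO87 (0.63) rose compared with AAC but by less than the chromosome median.

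A paralogue pair had 1 member on the chromosome. RPS14A (YCR031C, chromosome III, 177500 to 178220, minus strand) and RPS14B (YJL191W, chromosome X, 73787 to 74611, plus strand) encode the same protein of the small ribosomal subunit, which is known to repress the expression of RPS14B. RPS14A rose from 842 and 878 CPM in AAC to 1909 and 1831 CPM in MH34 (log2 fold change 1.12, standard error 0.11, edgeR adjusted p = 3.3e-05). RPS14B fell from 177 and 197 CPM in AAC to 110.0 and 110.3 CPM in MH34 (log2 fold change −0.76, standard error 0.08, edgeR adjusted p = 3.5e-05). These were the highest and the lowest fold change among the 56 genes for small-subunit proteins, of which 1 rose and 3 fell.

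Outside chromosome III, the largest rises were those of genes with low levels in AAC. The largest rises and falls were picked among genes in which the strains did not overlap, so their separation is set by the choice. HXT13 (YEL069C, chromosome V, 21537 to 23231, minus strand), a carrier of the polyol type, had 0.334 and 0.109 CPM in AAC and 22.9 and 15.2 CPM in MH34. Its summed counts were 4 in AAC and 322 in MH34, a ratio of 85.3 (95% exact interval 33 to 315, counting error only). HXT10 (YFL011W, chromosome VI, 112345 to 113985, plus strand) rose from 8.47 and 5.24 CPM in AAC to 254 and 145 CPM in MH34 (log2 fold change 4.86, standard error 0.56, edgeR adjusted p = 0.00074). HUG1 (YML058W-A, chromosome XIII, 158760 to 158966, plus strand), an inhibitor of ribonucleotide reductase that responds to DNA damage, rose from 2.79 and 3.5 CPM in AAC to 87.4 and 88.8 CPM in MH34 (log2 fold change 4.80, standard error 0.18, edgeR adjusted p = 6.5e-08). The replicates of HUG1 were close in both strains.

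TIR3 (YIL011W, chromosome IX, 333727 to 334536, plus strand), a cell wall mannoprotein of anaerobic growth, rose from 8.03 and 8.96 CPM in AAC to 228 and 187 CPM in MH34 (log2 fold change 4.61, standard error 0.14, edgeR adjusted p = 2.0e-08). CYC7 (YEL039C, chromosome V, 79636 to 79977, minus strand), the hypoxic isoform of cytochrome c, rose from 10.5 and 9.39 CPM in AAC to 188 and 128 CPM in MH34 (log2 fold change 3.99, standard error 0.24, edgeR adjusted p = 4.5e-06). GID10 (YGR066C, chromosome VII, 620921 to 621799, minus strand), a substrate receptor of the GID ubiquitin ligase, rose from 3.79 and 2.84 CPM in AAC to 46.8 and 32.5 CPM in MH34 (log2 fold change 3.57, standard error 0.28, edgeR adjusted p = 9.0e-06). For these 3 genes, the lowest MH34 library lay far above the highest AAC library, a separation that the choice of genes favoured. The other rises were those of DFP4 (3.87), the dihydroxyacetone kinase gene DAK2 (4.08), YMR206W (3.69), and the flocculin gene FLO11 (4.78). The call of DAK2 was lost (adjusted p = 0.053 without AAC replicate 2), and so was that of YMR206W (0.059 without AAC replicate 1, 0.081 without AAC replicate 2, 0.057 without MH34 replicate 1). The value of DAK2 ranged from 2.94 without MH34 replicate 1 to 5.25 without AAC replicate 1, that of YMR206W was 3.04 without MH34 replicate 1, and that of DFP4 was 4.53 without AAC replicate 1. FLO11 (YIR019C, chromosome IX, 389572 to 393675, minus strand) had 16.1 and 14.8 CPM in AAC and 819 and 32 CPM in MH34 (log2 fold change 4.78, standard error 1.31, edgeR adjusted p = 0.029), so that its value rested on MH34 replicate 1. The value was 1.05 without MH34 replicate 1 and 5.74 without MH34 replicate 2, and the call was lost (0.13 without AAC replicate 1, 0.14 without AAC replicate 2).

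**Figure D2:**
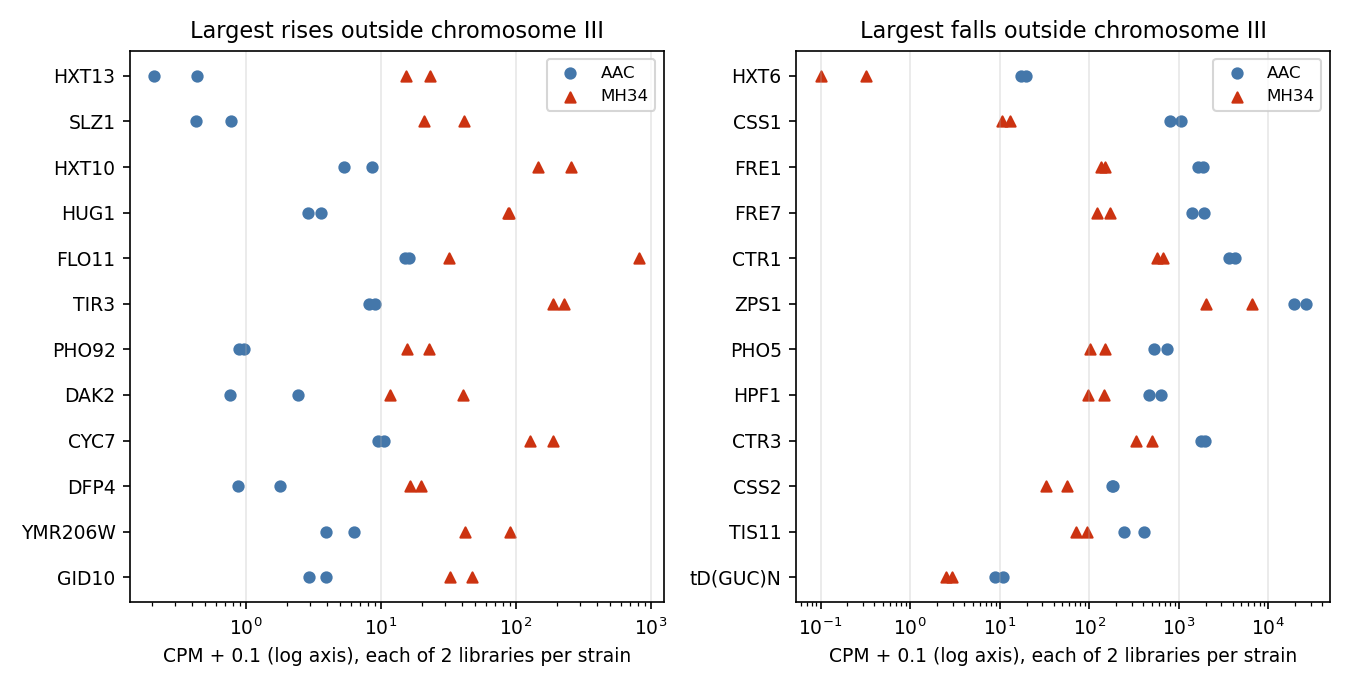
Level of the 12 genes with the largest rises (left) and the 12 with the largest falls (right) outside chromosome III, as CPM plus 0.1 on a log axis, with 1 symbol for each library (circles AAC, triangles MH34). All 24 genes were picked among those in which the strains do not overlap, so the separation of the symbols is set by the choice. The MH34 libraries of FLO11 lie far apart.

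Several of the strongest rises belonged to meiotic genes, which Ume6 is known to repress in growing cells through the upstream repressing sequence URS1. The core of this element was searched as TAGCCGCC on both strands in the 500 bases upstream of the start codon, for 5549 genes outside chromosome III. The letters were chosen after the calls were seen. Sequences of 60 bases around the match, from the R64 reference and 5′ to 3′ on the strand of the gene, are shown for 6 of the 16 genes that had a match and were at least 4-fold higher, picked after their values were seen, with the match on either strand in capitals.

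SAE3: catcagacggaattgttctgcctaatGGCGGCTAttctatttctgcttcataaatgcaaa
SLZ1: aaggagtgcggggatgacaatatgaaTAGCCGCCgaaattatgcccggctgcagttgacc
PHO92: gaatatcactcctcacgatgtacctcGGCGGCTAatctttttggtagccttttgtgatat
RNP1: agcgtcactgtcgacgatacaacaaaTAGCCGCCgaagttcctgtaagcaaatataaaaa
SRT1: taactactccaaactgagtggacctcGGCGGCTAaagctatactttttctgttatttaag
MEI5: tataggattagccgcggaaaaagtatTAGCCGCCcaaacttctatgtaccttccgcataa

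The matches lay 109 bases upstream of SAE3 (chromosome VIII from 262629 to 262688), 137 bases upstream of SLZ1 (chromosome XIV from 271275 to 271334), 229 upstream of PHO92 (chromosome IV from 1224590 to 1224649), 178 upstream of RNP1 (chromosome XII from 47608 to 47667), 144 upstream of SRT1 (chromosome XIII from 469587 to 469646), and 128 upstream of MEI5 (chromosome XVI from 321725 to 321784). SAE3 (YHR079C-A) and MEI5 (YPL121C) encode partners of the meiotic recombinase. SAE3 had 1 and 1 counts in AAC and 71 and 89 in MH34, a ratio of 84.8 (95% exact interval 23.1 to 706). SLZ1 (YNL196C, chromosome XIV, 270275 to 271171, minus strand) encodes a subunit of the complex that methylates adenosines in meiotic mRNAs, and PHO92 (YDR374C, chromosome IV, 1223474 to 1224394, minus strand) a protein that binds this modification. SLZ1 rose from 0.669 and 0.328 CPM in AAC to 20.7 and 41.1 CPM in MH34 (log2 fold change 5.93, standard error 0.53, edgeR adjusted p = 3.7e-05). PHO92 rose from 0.78 and 0.874 CPM in AAC to 15.6 and 22.7 CPM in MH34 (log2 fold change 4.51, standard error 0.31, edgeR adjusted p = 2.2e-06). MEI5 rose from 0.112 and 0.328 CPM in AAC to 1.12 and 1.54 CPM in MH34 (log2 fold change 2.53, standard error 0.63, edgeR adjusted p = 0.011), a call that was lost (0.074 without AAC replicate 1, 0.066 without MH34 replicate 2).

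Of the 94 genes that were higher by at least 4-fold, 16 (17%) had the match, compared with 129 of the 5549 (2.32%), 40 of the 876 higher genes (4.57%), and 21 of the 910 lower genes (2.31%). The 16 genes share 15 sites, since the divergent neighbours YIG1 and CSM4 have 1 site between them, and the calls of both were lost (0.065 without AAC replicate 1, 0.13 without AAC replicate 2, 0.099 without MH34 replicate 1 for YIG1 and 0.095 without AAC replicate 1, 0.14 without AAC replicate 2, 0.1 without MH34 replicate 1, 0.064 without MH34 replicate 2 for CSM4). Others of the 16 were the meiotic genes HOP2 (2.52) and NDJ1 (2.63), the sporulation-induced prenyltransferase gene SRT1 (3.41), and the regulator of gluconeogenic genes SIP4 (2.25). A match is a description of the sequence and not evidence of binding. UME6 itself had 76.1 and 66.6 CPM in AAC and 78.8 and 75.3 CPM in MH34 (log2 fold change 0.11, standard error 0.08, edgeR adjusted p = 0.31).

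Of the 22 genes in a list for meiosis and sporulation, 9 were higher and 3 lower, with a median of 0.62, and 4 of the 9 also passed with each of the 4 libraries left out in turn. The count of higher genes was 5 without AAC replicate 2. The translational regulator gene RIM4 rose from 136 and 87.2 CPM in AAC to 447 and 392 CPM in MH34 (log2 fold change 1.91, standard error 0.21, edgeR adjusted p = 0.00014). The meiotic cohesin gene REC8 rose from 11.5 and 6.44 CPM in AAC to 21.6 and 20.3 CPM in MH34 (log2 fold change 1.22, standard error 0.22, edgeR adjusted p = 0.0019). SPO11, which makes the meiotic double-strand breaks, fell from 36.1 and 33.4 CPM in AAC to 13.4 and 21.4 CPM in MH34 (log2 fold change −0.99, standard error 0.20, edgeR adjusted p = 0.0034). The late regulator gene NDT80 had a log2 fold change of −0.72 and did not pass, so genes of the programme moved in both directions.

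**Figure D3:**
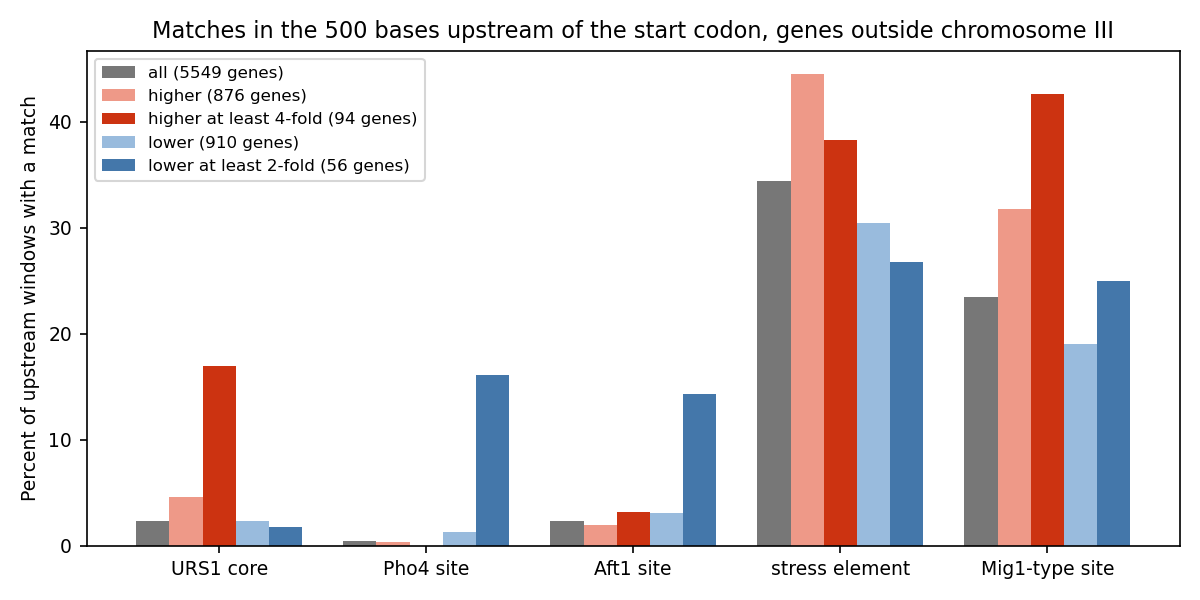
Percent of genes outside chromosome III with a match in the 500 bases upstream of the start codon (y axis), for 5 short motifs (x axis) and for all genes, genes higher or lower in MH34, and those changed most. The URS1 core was found in 17% of the genes at least 4-fold higher and 2.32% of all genes, and the Pho4 and Aft1 sites in 16.1% and 14.3% of the genes at least 2-fold lower.

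Genes for sugar uptake were mostly higher in MH34. Of 8 main hexose carriers tested, 5 were higher and 1 lower, with a median of 0.97. HXT1 (YHR094C, chromosome VIII, 290913 to 292625, minus strand), the low-affinity carrier of glucose-rich media, rose from 12.9 and 15 CPM in AAC to 43.5 and 109 CPM in MH34 (log2 fold change 2.46, standard error 0.44, edgeR adjusted p = 0.0052), a value of 1.65 without MH34 replicate 2. HXT4 (YHR092C, chromosome VIII, 287081 to 288811, minus strand) rose from 276 and 361 CPM in AAC to 1067 and 966 CPM in MH34 (log2 fold change 1.67, standard error 0.15, edgeR adjusted p = 1.5e-05). HXT2 (YMR011W), a carrier of higher affinity, rose from 839 and 1050 CPM in AAC to 1988 and 1632 CPM in MH34 (log2 fold change 0.94, standard error 0.15, edgeR adjusted p = 0.00072). The low-affinity carrier HXT3 (YDR345C) rose from 614 and 759 CPM in AAC to 1242 and 1520 CPM in MH34 (log2 fold change 1.01, standard error 0.23, edgeR adjusted p = 0.0077), a call that was lost (0.057 without AAC replicate 1). The galactose carrier gene GAL2 had the highest log2 fold change of the list (3.04), at low levels of 0.78 and 1.09 CPM in AAC and 10.5 and 5.29 CPM in MH34.

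HXT6 (YDR343C, chromosome IV, 1159608 to 1161320, minus strand), a high-affinity carrier, had 178 and 156 counts in AAC and 0 and 2 in MH34, a ratio of 158 in favour of AAC (95% exact interval 43.3 to 1310). Its near-identical neighbour HXT7 (YDR342C) had 1263 and 871 counts in AAC and 1126 and 557 in MH34, and the strains overlapped. As the treatment of reads shared by the copies is not given in the sources used here, the split between HXT6 and HXT7 is uncertain. The same holds for the near-identical polyol carriers, of which HXT17 had 2 and 0 counts in AAC and 81 and 54 in MH34 (ratio 71.5, 95% exact interval 19.4 to 597), and HXT15 had 1 and 2 compared with 16 and 10 (ratio 9.18, interval 2.81 to 47.4). With so few counts in 1 strain, the fitted log2 fold changes moved with single libraries, that of HXT17 (6.0) to 9.08 without AAC replicate 1 and 5.07 without AAC replicate 2. That of HXT13 (6.33) was 7.26 without AAC replicate 1, and that of HXT6 (−7.13) was −6.30 without MH34 replicate 1 and −10.28 without MH34 replicate 2.

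Other sugars followed the same direction. Of 14 genes for the use of maltose, sucrose, and galactose, 10 were higher and 0 lower, with a median of 1.19, and 7 of the 10 passed with each library left out. The maltase genes MAL12 and MAL32 are near-identical. MAL12 rose from 25.4 and 28.6 CPM in AAC to 225 and 187 CPM in MH34 (log2 fold change 2.93, standard error 0.34, edgeR adjusted p = 0.00058). MAL32 rose from 30.0 and 33.2 CPM in AAC to 206 and 223 CPM in MH34 (log2 fold change 2.76, standard error 0.28, edgeR adjusted p = 0.0002). The α-glucoside carrier gene MAL11 (YGR289C) rose from 55.4 and 60.4 CPM in AAC to 393 and 316 CPM in MH34 (log2 fold change 2.61, standard error 0.45, edgeR adjusted p = 0.0043). The invertase gene SUC2 (YIL162W) rose from 105 and 97 CPM in AAC to 746 and 395 CPM in MH34 (log2 fold change 2.5, standard error 0.51, edgeR adjusted p = 0.0097), a call that was lost (0.055 without AAC replicate 1, 0.061 without AAC replicate 2). The galactose enzymes GAL1 (−0.28) and GAL7 (0.38) did not pass.

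In the list for glucose sensing and repression, 4 of 16 were higher and 2 lower. MTH1 (YDR277C), a repressor of HXT genes in the absence of glucose, rose from 66.3 and 83.2 CPM in AAC to 242 and 213 CPM in MH34 (log2 fold change 1.60, standard error 0.15, edgeR adjusted p = 4.0e-05), and the high-affinity glucose sensor gene SNF3 rose (0.89), while that of the low-affinity sensor, RGT2, fell (−0.62). The count of lower genes was 1 without AAC replicate 1, AAC replicate 2, or MH34 replicate 2. Of 4 genes for phosphorylation of hexoses, 3 rose. GLK1 (YCL040W), on chromosome III, rose from 493 and 416 CPM in AAC to 1863 and 1419 CPM in MH34 (log2 fold change 1.85, standard error 0.27, edgeR adjusted p = 0.00082). HXK1 (YFR053C) rose from 334 and 249 CPM in AAC to 2097 and 1149 CPM in MH34 (log2 fold change 2.48, standard error 0.57, edgeR adjusted p = 0.014), a call that was lost (0.057 without AAC replicate 1, 0.088 without AAC replicate 2, 0.066 without MH34 replicate 1). The count of 3 was 1 in each of these 3 omissions. Its paralogue HXK2, the main hexokinase on glucose, had 777 and 955 CPM in AAC and 675 and 676 CPM in MH34 (log2 fold change −0.36, standard error 0.13, edgeR adjusted p = 0.054). GC-rich Mig1-type sites (CCCCNC, either strand) were found upstream of 42.6% of the genes higher by at least 4-fold, 31.8% of all higher genes, and 23.5% of all genes.

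Genes of glycolysis moved the other way. Of 13 genes, 0 were higher and 6 lower, with a median of −0.45, and 2 of the 6 passed with each library left out. The count was 2 without AAC replicate 1. The glyceraldehyde-3-phosphate dehydrogenase gene TDH2 (YJR009C) fell from 2581 and 1637 CPM in AAC to 939 and 942 CPM in MH34 (log2 fold change −1.17, standard error 0.18, edgeR adjusted p = 0.00065). The enolase gene ENO2 (YHR174W) fell from 6122 and 5176 CPM in AAC to 2966 and 3225 CPM in MH34 (log2 fold change −0.87, standard error 0.13, edgeR adjusted p = 0.00072). Both have close paralogues, to which part of their reads can be assigned. Levels of mRNA do not give fluxes. The exchange rates that the study lists at 0.2/h are higher in MH34 than in AAC for glucose uptake and ethanol production. At the pyruvate branch point, the main pyruvate decarboxylase gene PDC1 fell from 8122 and 6993 CPM in AAC to 4962 and 3779 CPM in MH34 (log2 fold change −0.79, standard error 0.16, edgeR adjusted p = 0.0034), and the minor isoform PDC6 was higher (0.75), a call that was lost (0.094 without AAC replicate 2, 0.067 without MH34 replicate 2).

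Genes of gluconeogenesis rose in part. Of 12 genes for gluconeogenesis and the glyoxylate cycle, 5 were higher and 0 lower, with a median of 0.95. The phosphoenolpyruvate carboxykinase gene PCK1 (YKR097W) rose from 27.9 and 25.2 CPM in AAC to 99.9 and 110.3 CPM in MH34 (log2 fold change 1.99, standard error 0.22, edgeR adjusted p = 0.00015). The fructose-1,6-bisphosphatase gene FBP1 (YLR377C) rose from 7.13 and 6.12 CPM in AAC to 23.3 and 24.1 CPM in MH34 (log2 fold change 1.84, standard error 0.25, edgeR adjusted p = 0.00047). Those 2 passed with each library left out, whereas the calls of the acetyl-CoA synthetase gene ACS1 (log2 fold change 2.16) and of the glyoxylate cycle genes ICL1 (1.03) and MLS1 (1.0) were lost (0.095 without AAC replicate 2, 0.06 without MH34 replicate 2 for ACS1, 0.057 without AAC replicate 2, 0.052 without MH34 replicate 2 for ICL1, and 0.062 without AAC replicate 2, 0.12 without MH34 replicate 1 for MLS1). The count of higher genes was 2 without AAC replicate 2, 3 without MH34 replicate 2, and 8 without AAC replicate 1.

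Storage carbohydrate genes were higher. Of 16 genes of glycogen metabolism, 10 rose and 2 fell, with a median of 0.84. The glycogen synthase gene GSY1 (YFR015C) rose from 76.7 and 63.7 CPM in AAC to 340.0 and 208 CPM in MH34 (log2 fold change 1.97, standard error 0.26, edgeR adjusted p = 0.00088). The phosphorylase gene GPH1 (YPR160W), which degrades glycogen, rose from 99.8 and 84.8 CPM in AAC to 464 and 281 CPM in MH34 (log2 fold change 2.01, standard error 0.51, edgeR adjusted p = 0.021). The call of GPH1 was lost (0.082 without AAC replicate 1, 0.11 without AAC replicate 2, 0.096 without MH34 replicate 1). The branching enzyme gene GLC3 rose from 89.6 and 75.8 CPM in AAC to 333 and 254 CPM in MH34 (log2 fold change 1.82, standard error 0.38, edgeR adjusted p = 0.011), a call that was lost (0.066 without AAC replicate 2). Of the 10 rises, 5 remained with each library left out, and the count was lowest without AAC replicate 2, at 5.

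Of 7 trehalose genes, 6 rose and 0 fell, with a median of 0.62. Only the trehalase gene NTH2 (YBR001C) passed with each library left out, from 50.9 and 44.2 CPM in AAC to 104 and 102 CPM in MH34 (log2 fold change 1.11, standard error 0.13, edgeR adjusted p = 0.00014). The count of higher genes was 2 without AAC replicate 1, 1 without AAC replicate 2, 2 without MH34 replicate 1, and 3 without MH34 replicate 2. Of 18 genes of fatty acid oxidation, 6 rose and 2 fell, led by the peroxisomal catalase gene CTA1, from 16.5 and 10.81 CPM in AAC to 95.9 and 79.8 CPM in MH34 (log2 fold change 2.68, standard error 0.45, edgeR adjusted p = 0.0041), and the thiolase gene POT1 of S. cerevisiae, from 29.2 and 15.2 CPM in AAC to 144 and 118 CPM in MH34 (log2 fold change 2.56, standard error 0.39, edgeR adjusted p = 0.0026). The 2 falls of this list were lost without AAC replicate 1. The host gene POT1 is distinct from the Schizosaccharomyces pombe gene on the plasmid.

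**Figure D4:**
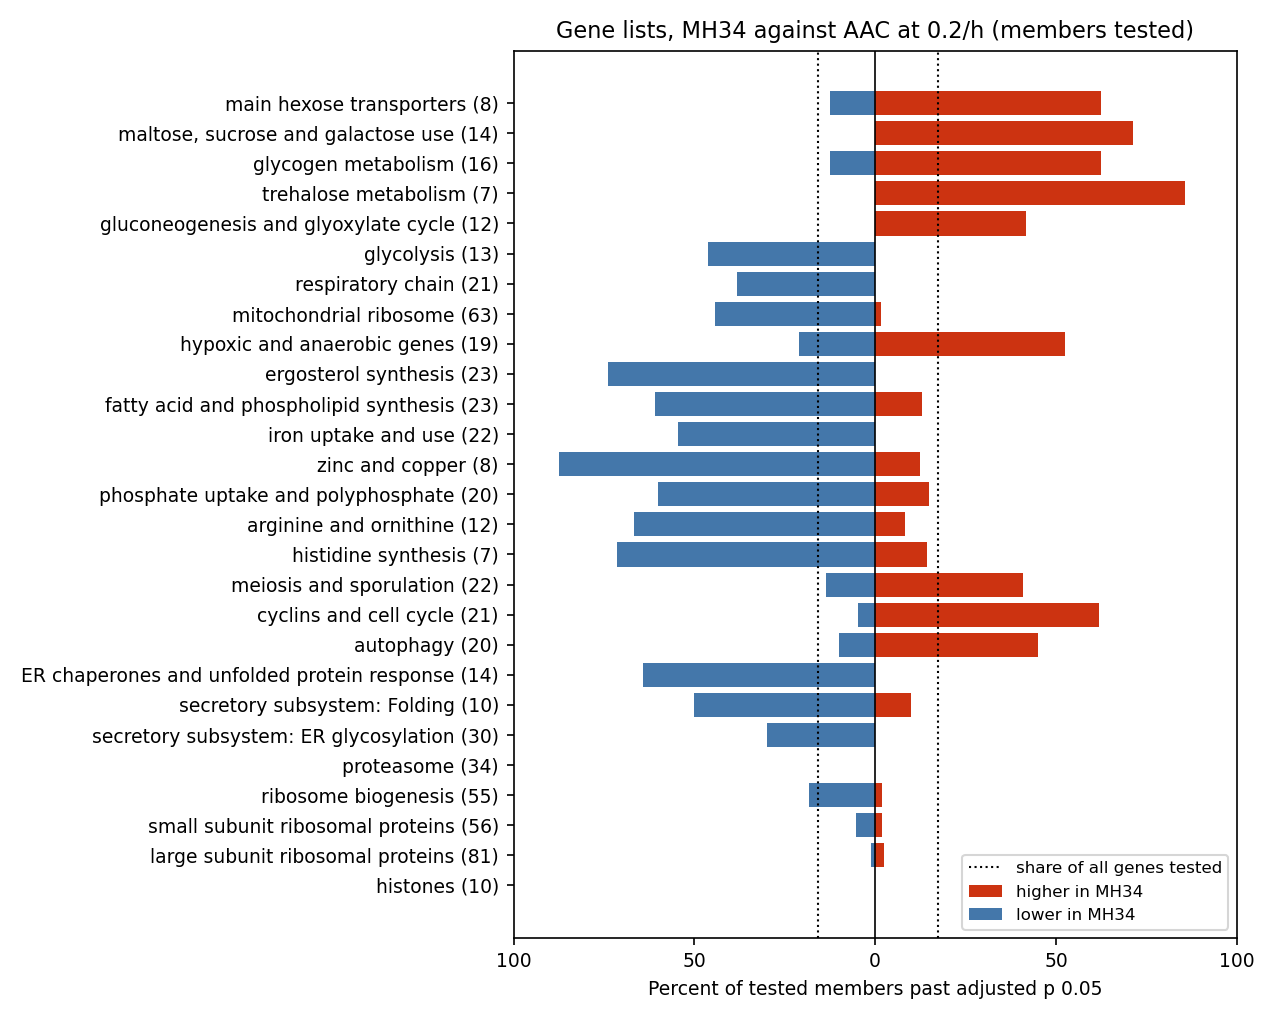
Percent of the tested members of each gene list that were higher (red, to the right) or lower (blue, to the left) in MH34 at an adjusted p under 0.05, with the number of members in parentheses. Dotted lines mark the shares of all genes, 17.4% higher and 15.7% lower.

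Genes of hypoxic growth, which Rox1 represses in the presence of oxygen and haem, were higher in part. Both cultures were aerated. Of 19 tested, 10 rose and 4 fell, with a median of 0.57, and 7 of the 10 passed with each library left out. Besides TIR3 and CYC7, the sterol importer gene PDR11 (YIL013C) rose from 25.4 and 17.9 CPM in AAC to 77.8 and 70.6 CPM in MH34 (log2 fold change 1.78, standard error 0.14, edgeR adjusted p = 3.9e-06). The hypoxic form of translation factor eIF5A, ANB1 (YJR047C), rose from 0.557 and 1.09 CPM in AAC to 14.2 and 7.71 CPM in MH34 (log2 fold change 3.69, standard error 0.39, edgeR adjusted p = 4.5e-05). Its aerobic paralogue HYP2 (YEL034W), which is nearly identical, fell from 2437 and 2452 CPM in AAC to 1671 and 1708 CPM in MH34 (log2 fold change −0.53, standard error 0.09, edgeR adjusted p = 0.0012). The mannoprotein gene TIR1 rose from 1 and 0.874 CPM in AAC to 5.23 and 6.39 CPM in MH34 (log2 fold change 2.62, standard error 0.35, edgeR adjusted p = 0.00023). ROX1 (YPR065W) itself fell from 203 and 186 CPM in AAC to 144 and 134 CPM in MH34 (log2 fold change −0.48, standard error 0.08, edgeR adjusted p = 0.0013). The low-affinity iron carrier gene FET4 fell from 396 and 364 CPM in AAC to 158 and 100.4 CPM in MH34 (log2 fold change −1.55, standard error 0.20, edgeR adjusted p = 0.00051). The related genes TIR2 (0.21), TIR4 (0.30), and DAN4 (−0.03) did not pass.

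Respiratory genes were lower or did not pass. Of 21 genes of the respiratory chain, 0 rose and 8 fell, with a median of −0.28, but 0 of the 8 passed with each library left out, and the count was 2 without AAC replicate 1, 1 without MH34 replicate 2, and 14 without MH34 replicate 1. The highest log2 fold change of the list was 1.62, in a gene that did not pass. With library size alone, 1 gene of the list rose and 6 fell, and DESeq2 called 1 higher. The aerobic cytochrome c gene CYC1 fell from 1758 and 1584 CPM in AAC to 1235 and 1060 CPM in MH34 (log2 fold change −0.54, standard error 0.12, edgeR adjusted p = 0.0067), a call that was lost (0.055 without MH34 replicate 2). Of 63 listed genes for mitochondrial ribosomal proteins, 28 fell and 1 rose, with a median of −0.24. The 1 that rose, MRPL32 (0.41), lies on chromosome III, and its call was lost (0.079 without AAC replicate 2, 0.098 without MH34 replicate 1). IMG1 (0.58) and IMG2 (0.78), also genes for mitochondrial ribosomal proteins on chromosome III, were not on the list and were higher in MH34. MRPL10 fell from 325 and 284 CPM in AAC to 214 and 181 CPM in MH34 (log2 fold change −0.62, standard error 0.10, edgeR adjusted p = 0.0012). With each library left out, 9 of the 28 passed, and the count was 10 without AAC replicate 1 and 14 without MH34 replicate 2. With library size alone, 18 fell.

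Sterol and phospholipid synthesis were lower. Of 23 ergosterol genes, 17 fell and 0 rose, with a median of −0.33, and 10 of the 17 passed with each library left out. The count was 11 without AAC replicate 1 and 11 without MH34 replicate 2, and it was 11 with library size alone. HMG1 (YML075C), which encodes the main 3-hydroxy-3-methylglutaryl-CoA reductase, fell from 404 and 355 CPM in AAC to 219 and 214 CPM in MH34 (log2 fold change −0.81, standard error 0.09, edgeR adjusted p = 5.7e-05). ERG3 (YLR056W), a sterol desaturase, fell from 606 and 655 CPM in AAC to 375 and 457 CPM in MH34 (log2 fold change −0.60, standard error 0.10, edgeR adjusted p = 0.0013). Of 23 genes for fatty acids and phospholipids, 14 fell and 3 rose, with a median of −0.33. With library size alone, 6 fell. The count of lower genes was 9 without AAC replicate 1, 6 without AAC replicate 2, and 5 without MH34 replicate 1. OPI3 (YJR073C), a methyltransferase of phosphatidylcholine synthesis, fell from 2219 and 2292 CPM in AAC to 886 and 1299 CPM in MH34 (log2 fold change −1.05, standard error 0.18, edgeR adjusted p = 0.0014). PSD1 (YNL169C), the mitochondrial phosphatidylserine decarboxylase, fell from 834 and 917 CPM in AAC to 416 and 476 CPM in MH34 (log2 fold change −0.97, standard error 0.13, edgeR adjusted p = 0.00023). The activator gene INO2 (YDR123C) fell from 132 and 152 CPM in AAC to 68.9 and 89.7 CPM in MH34 (log2 fold change −0.84, standard error 0.16, edgeR adjusted p = 0.0029), while INO1, its best-known target, had 3554 and 5943 CPM in AAC and 3503 and 5618 CPM in MH34 (log2 fold change −0.06, standard error 0.32, edgeR adjusted p = 0.91).

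The largest falls outside chromosome III, beside HXT6, were in genes for the cell surface and for metal uptake. CSS1 (YIL169C, chromosome IX, 23119 to 26106, minus strand) fell from 1048 and 798 CPM in AAC to 12.9 and 10.5 CPM in MH34 (log2 fold change −6.30, standard error 0.31, edgeR adjusted p = 2.2e-06). HPF1 (YOL155C, chromosome XV, 28703 to 31606, minus strand), a mannoprotein, fell from 639 and 467 CPM in AAC to 148 and 97.1 CPM in MH34 (log2 fold change −2.18, standard error 0.23, edgeR adjusted p = 8.6e-05). In both genes the MH34 libraries lay far below those of AAC, a separation that the choice of genes favoured. The small gene CSS2 had a log2 fold change of −2.03. The aspartate tRNA tD(GUC)N, named as in the count table, fell from 10.7 and 8.85 CPM in AAC to 2.86 and 2.42 CPM in MH34 (log2 fold change −1.89, standard error 0.24, edgeR adjusted p = 0.00016), in libraries prepared for mRNA.

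Copper and zinc genes were lower nearly throughout, with 7 of 8 tested lower, 1 higher, and a median of −1.05. CTR1 (YPR124W, chromosome XVI, 786208 to 787428, plus strand), the high-affinity copper carrier, fell from 4282 and 3677 CPM in AAC to 660.1 and 569.7 CPM in MH34 (log2 fold change −2.69, standard error 0.14, edgeR adjusted p = 6.9e-07). CTR3 (YLR411W, chromosome XII, 947253 to 947978, plus strand), also a high-affinity copper carrier, fell from 1951 and 1758 CPM in AAC to 499 and 336 CPM in MH34 (log2 fold change −2.15, standard error 0.16, edgeR adjusted p = 3.4e-06). The surface reductases that serve copper uptake fell with them. FRE1 (YLR214W, chromosome XII, 568567 to 570627, plus strand), which reduces iron and copper, fell from 1644 and 1880 CPM in AAC to 136 and 152 CPM in MH34 (log2 fold change −3.61, standard error 0.20, edgeR adjusted p = 1.4e-06). FRE7 (YOL152W, chromosome XV, 40748 to 42610, plus strand) fell from 1921 and 1425 CPM in AAC to 172 and 122 CPM in MH34 (log2 fold change −3.51, standard error 0.22, edgeR adjusted p = 3.4e-06). All 4 are known targets of the copper regulator Mac1, whose own gene had 52 and 57 CPM in AAC and 52.2 and 58.5 CPM in MH34 (log2 fold change 0.02, standard error 0.09, edgeR adjusted p = 0.86). The metallothionein gene CRS5 (YOR031W), which binds copper, was the 1 gene of the list that rose, from 12 and 9.83 CPM in AAC to 28.9 and 29.3 CPM in MH34 (log2 fold change 1.41, standard error 0.20, edgeR adjusted p = 0.00045).

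ZPS1 (YOL154W, chromosome XV, 34658 to 35407, plus strand), a surface protein that responds to zinc and pH, fell from 26070 and 19470 CPM in AAC to 6547 and 1994 CPM in MH34 (log2 fold change −2.42, standard error 0.45, edgeR adjusted p = 0.0039), so that its replicates in MH34 were far apart from each other but below those of AAC. Its value was −3.51 without MH34 replicate 1 and −1.79 without MH34 replicate 2. The vacuolar zinc exporter gene ZRT3 (YKL175W) fell from 2438 and 2212 CPM in AAC to 1156 and 870.4 CPM in MH34 (log2 fold change −1.20, standard error 0.15, edgeR adjusted p = 0.00014). The plasma membrane carrier gene ZRT1 had a log2 fold change of −0.70 and the regulator gene ZAP1 one of −0.67. The calls of both were lost (0.068 without AAC replicate 1, 0.061 without MH34 replicate 2 for ZRT1 and 0.063 without AAC replicate 1 for ZAP1). The count of 7 lower genes was 4 without AAC replicate 1.

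Iron genes were lower as well, with 12 of 22 lower, 0 higher, and a median of −0.79, and 9 of the 12 passed with each library left out. Aft1 is known to activate iron genes through sites with the core TGCACCC. This core was found on either strand in the 500 bases upstream of 8 of the 56 genes lower by at least 2-fold (14.3%), compared with 128 of the 5549 genes (2.31%). A stretch of 60 bases with the match in capitals is shown for the multicopper oxidase gene FET3 and the siderophore carrier gene ARN1.

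FET3: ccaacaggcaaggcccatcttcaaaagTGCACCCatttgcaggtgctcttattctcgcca
ARN1: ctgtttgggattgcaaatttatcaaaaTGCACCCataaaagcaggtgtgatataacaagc

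The matches lay 251 bases upstream of FET3 (chromosome XIII from 388544 to 388603) and 260 bases upstream of ARN1 (chromosome VIII from 21199 to 21258). FET3 (YMR058W) fell from 1142 and 1407 CPM in AAC to 443 and 511 CPM in MH34 (log2 fold change −1.42, standard error 0.29, edgeR adjusted p = 0.0064). ARN1 (YHL040C) fell from 318 and 452 CPM in AAC to 101 and 118 CPM in MH34 (log2 fold change −1.81, standard error 0.32, edgeR adjusted p = 0.0043). TIS11 (YLR136C, chromosome XII, 415801 to 416658, minus strand), which binds and destabilises mRNAs of iron-using proteins when iron is scarce, fell from 244 and 413 CPM in AAC to 72.1 and 94.3 CPM in MH34 (log2 fold change −1.98, standard error 0.39, edgeR adjusted p = 0.0079), a call that was lost (0.053 without MH34 replicate 1). The regulator gene AFT1 (YGL071W) fell from 126 and 149.9 CPM in AAC to 70.7 and 81.8 CPM in MH34 (log2 fold change −0.85, standard error 0.18, edgeR adjusted p = 0.0056). The permease FTR1, the partner of Fet3, had 801 and 812 CPM in AAC and 597 and 686 CPM in MH34 (log2 fold change −0.33, standard error 0.12, edgeR adjusted p = 0.054), and the cell wall genes FIT2 (−1.0) and FIT3 (−0.43) did not pass.

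Phosphate genes had a similar pattern. Of 20, 12 fell and 3 rose, with a median of −0.49, and 9 of the 12 falls passed with each library left out. Pho4 is known to bind CACGTG, and with 2 further bases the motif CACGTGGG was found upstream of 9 of the 56 genes lower by at least 2-fold (16.1%), compared with 27 of the 5549 (0.487%). The 9 genes included CTF19, the divergent neighbour of VTC3. The match is shown in capitals for the 3 genes of the list with the largest falls.

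PHO5: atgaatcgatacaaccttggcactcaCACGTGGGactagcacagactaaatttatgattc
PHO89: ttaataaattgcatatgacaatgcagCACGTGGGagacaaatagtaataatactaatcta
PHO84: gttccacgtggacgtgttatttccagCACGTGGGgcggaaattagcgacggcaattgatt

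The matches lay 253 bases upstream of PHO5 (chromosome II from 431171 to 431230), 323 upstream of PHO89 (chromosome II from 798812 to 798871), and 414 upstream of PHO84 (chromosome XIII from 26181 to 26240). PHO5 (YBR093C, chromosome II, 429548 to 430951, minus strand), the repressible acid phosphatase, fell from 525 and 743 CPM in AAC to 149 and 103 CPM in MH34 (log2 fold change −2.33, standard error 0.30, edgeR adjusted p = 0.0011). The sodium-phosphate carrier gene PHO89 (YBR296C) fell from 603 and 952 CPM in AAC to 232 and 269 CPM in MH34 (log2 fold change −1.63, standard error 0.25, edgeR adjusted p = 0.0014). The high-affinity carrier gene PHO84 (YML123C) fell from 786 and 1245 CPM in AAC to 432 and 347 CPM in MH34 (log2 fold change −1.38, standard error 0.21, edgeR adjusted p = 0.001). The replicates of AAC differed in all 3 genes, with replicate 2 the higher, and both lay above the MH34 replicates. The small regulator gene SPL2 fell from 48.5 and 82.8 CPM in AAC to 32.1 and 27 CPM in MH34 (log2 fold change −1.15, standard error 0.21, edgeR adjusted p = 0.0026). The polyphosphate polymerase subunit gene VTC3 fell from 491 and 720.4 CPM in AAC to 298 and 289.6 CPM in MH34 (log2 fold change −1.04, standard error 0.14, edgeR adjusted p = 0.00035). The low-affinity carriers rose, PHO87 on chromosome III by 0.63 and PHO90 by 0.48 on the log2 scale, and the call of PHO90 was lost (0.053 without MH34 replicate 1).

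**Figure D5:**
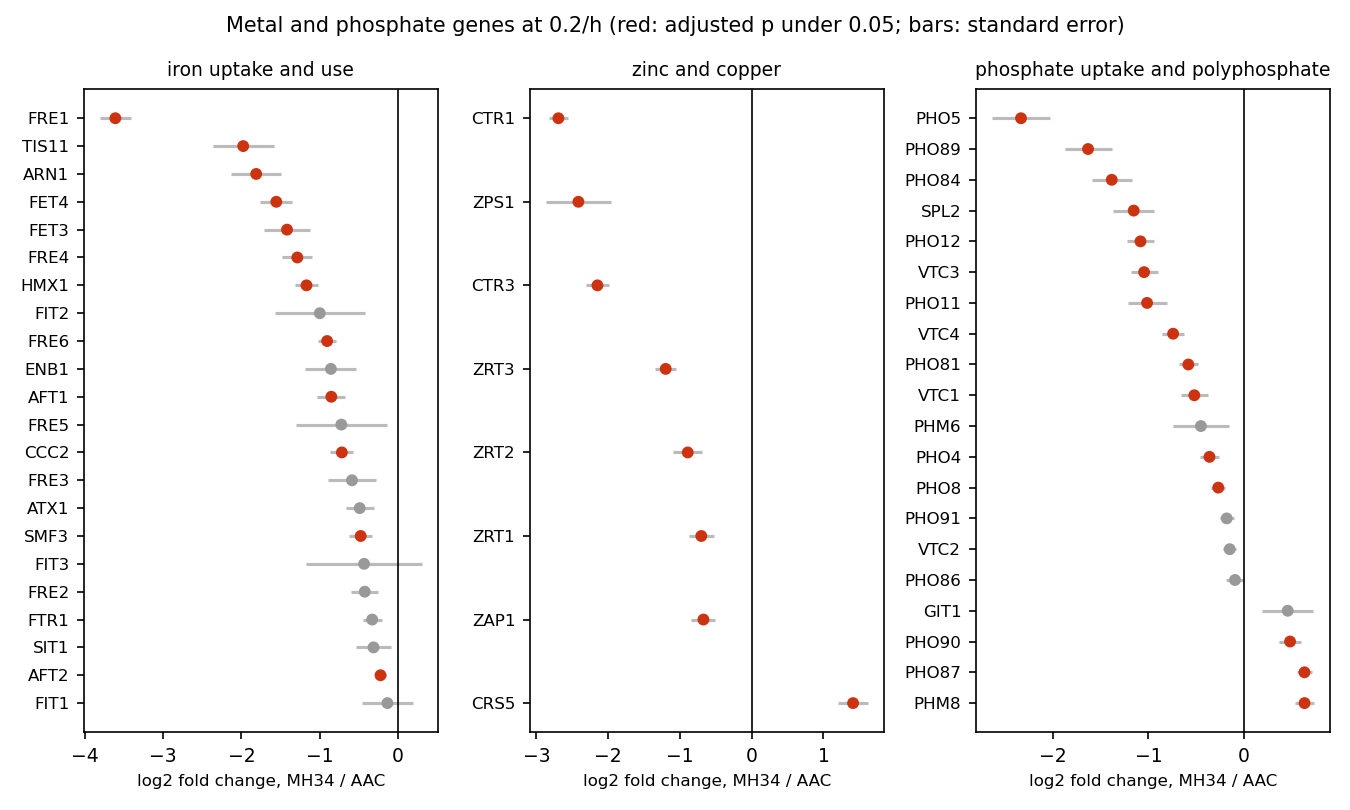
Log2 fold change of MH34 over AAC (x axis, bars are standard errors) for every tested gene of the lists for iron (left), zinc and copper (middle), and phosphate (right). Red points passed an adjusted p under 0.05, and they lie below 0 for 12 of 22, 7 of 8, and 12 of 20 genes.

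Genes of amino acid synthesis moved in both directions. Of 12 genes for arginine and ornithine, 8 fell and 1 rose, with a median of −0.54. ARG1 (YOL058W), the argininosuccinate synthetase, fell from 1358 and 1272 CPM in AAC to 911 and 575 CPM in MH34 (log2 fold change −0.82, standard error 0.17, edgeR adjusted p = 0.0041). CPA1 (YOR303W), a subunit of carbamoyl phosphate synthetase, fell from 624 and 584 CPM in AAC to 389.7 and 309.8 CPM in MH34 (log2 fold change −0.79, standard error 0.10, edgeR adjusted p = 0.00024). The ornithine carbamoyltransferase gene ARG3 had the lowest log2 fold change (−1.56), a call that was lost (0.057 without AAC replicate 1) and a value of −2.25 without MH34 replicate 1, and the arginase gene CAR1, for degradation, the highest (1.21), also lost (0.16 without AAC replicate 1, 0.18 without MH34 replicate 2) and 0.59 without MH34 replicate 2. Of 7 histidine genes, 5 fell, led by HIS1 (−0.74), and HIS4, on chromosome III, rose (0.71). The count of histidine genes lower was 3 without AAC replicate 2 or MH34 replicate 1 and 2 with library size alone. Of 15 genes for threonine, serine, and glycine, 7 fell and 2 rose, with a median of −0.21, but 0 of the 7 passed with each library left out, and the count was 1 without AAC replicate 2 or MH34 replicate 2. Of 13 genes for leucine, isoleucine, and valine, 5 rose and 3 fell, with a median of 0.22. ILV6 (0.86), on chromosome III, and BAT2 (0.48) were among the rises, ILV5 (−0.55) had the lowest value, and the count of 5 was 3 without AAC replicate 2 or MH34 replicate 1. The general regulator gene GCN4 had 1993 and 1694 CPM in AAC and 1672 and 1356 CPM in MH34 (log2 fold change −0.28, standard error 0.12, edgeR adjusted p = 0.094).

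Sulfur genes were mixed, with 6 of 26 higher and 8 lower, or 3 higher without AAC replicate 2 or MH34 replicate 1 and 5 lower without AAC replicate 1. MET32 (YDR253C), a regulator of sulfur genes, rose from 5.24 and 4.48 CPM in AAC to 29.1 and 18.9 CPM in MH34 (log2 fold change 2.30, standard error 0.21, edgeR adjusted p = 1.8e-05). The homoserine acetyltransferase gene MET2 (YNL277W) rose from 8.36 and 8.52 CPM in AAC to 40.7 and 29.2 CPM in MH34 (log2 fold change 2.04, standard error 0.17, edgeR adjusted p = 6.0e-06). The S-methylmethionine permease gene MMP1 had a log2 fold change of 2.39, while the S-adenosylmethionine synthetase gene SAM2 (−1.10) fell. The sulfate permease genes moved apart, with SUL1 higher (1.32) and SUL2 lower (−1.08), but the call of SUL1 was lost (0.088 without AAC replicate 1, 0.16 without AAC replicate 2, 0.11 without MH34 replicate 1, 0.12 without MH34 replicate 2).

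Stress genes did not move together. In the list for oxidative stress, 9 of 26 were higher and 5 lower, or 3 lower without MH34 replicate 2. The abundant peroxiredoxin genes AHP1 (YLR109W) and TSA1 (YML028W) fell, AHP1 from 1966 and 2058 CPM in AAC to 837 and 857 CPM in MH34 (log2 fold change −1.25, standard error 0.10, edgeR adjusted p = 7.8e-06). TSA1 fell from 4703 and 4670 CPM in AAC to 2611 and 1832 CPM in MH34 (log2 fold change −1.08, standard error 0.16, edgeR adjusted p = 0.00057). The 2 highest rises were on chromosome III, GRX1 (1.5) and TRX3 (1.39). The small heat shock gene HSP12 (YFL014W) rose from 299 and 207 CPM in AAC to 777 and 935 CPM in MH34 (log2 fold change 1.76, standard error 0.35, edgeR adjusted p = 0.0066), and of 22 cytosolic heat shock genes 6 rose and 2 fell, or 3 rose without AAC replicate 2 or MH34 replicate 2 and 0 fell without AAC replicate 1 or MH34 replicate 1. In mitochondria, 4 of 7 chaperone genes fell, led by SSC1 (−0.62). The stress element AGGGG was found upstream of 38.3% of the genes higher by at least 4-fold, 44.5% of all higher genes, and 34.4% of all genes, and this short motif also matches part of longer sites. Of 20 autophagy genes, 9 rose and 2 fell (1 without AAC replicate 1), and ATG15 (1.28) and ATG22 (1.15) among the rises lie on chromosome III.

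Genes of folding in the endoplasmic reticulum were lower in part. Of 14 ER chaperones and genes of the unfolded protein response, 9 fell and 0 rose, with a median of −0.32, and 4 of the 9 passed with each library left out. The count was 5 without AAC replicate 2, 5 without MH34 replicate 1, and 3 with library size alone. The chaperone gene KAR2 (YJL034W) fell from 3176 and 4119 CPM in AAC to 1964 and 2481 CPM in MH34 (log2 fold change −0.71, standard error 0.15, edgeR adjusted p = 0.005). HAC1 (YFL031W), the transcription factor of the unfolded protein response, fell from 1038 and 1195 CPM in AAC to 641 and 732 CPM in MH34 (log2 fold change −0.70, standard error 0.11, edgeR adjusted p = 0.00079). Its activation depends on splicing, which gene counts do not show. The nucleotide exchange factor gene SIL1 (YOL031C) fell from 326 and 385 CPM in AAC to 215 and 252 CPM in MH34 (log2 fold change −0.61, standard error 0.10, edgeR adjusted p = 0.0014). The thiol oxidase gene ERO1 (YML130C) fell from 492 and 576 CPM in AAC to 324 and 383 CPM in MH34 (log2 fold change −0.59, standard error 0.12, edgeR adjusted p = 0.004). In contrast, PDI1 (YCL043C, chromosome III, 48653 to 50221, minus strand), the protein disulfide isomerase that Ero1 oxidises, rose from 1821 and 2118 CPM in AAC to 2755 and 3402 CPM in MH34 (log2 fold change 0.64, standard error 0.13, edgeR adjusted p = 0.0036), less than the chromosome III median but not different from it at this threshold. PDI1 was the 1 higher gene among 7 for disulfide bonds, of which 2 fell.

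Along the secretory pathway, membership of 8 subsystems was taken from the study. Of 30 genes of ER glycosylation, 9 fell and 0 rose, with a median of −0.13, and with library size alone 4 fell and 2 rose. ALG12 fell from 249 and 222 CPM in AAC to 177 and 186 CPM in MH34 (log2 fold change −0.38, standard error 0.07, edgeR adjusted p = 0.0024), while ALG11 (0.06) and OST1 (−0.03) did not pass. The glucosidase gene CWH41 fell from 199 and 211 CPM in AAC to 152 and 173 CPM in MH34 (log2 fold change −0.34, standard error 0.09, edgeR adjusted p = 0.015), a call that was lost (0.084 without AAC replicate 2, 0.11 without MH34 replicate 1), and the next glucosidase of the pathway, ROT2, had 112 and 105 CPM in AAC and 111 and 131 CPM in MH34 (log2 fold change 0.15, standard error 0.09, edgeR adjusted p = 0.21). Of 32 genes for transport between ER and Golgi, 8 fell and 2 rose, and the 2 that rose, RER1 (0.74) and SED4 (0.79), are on chromosome III. The count of lower genes was 3 without AAC replicate 2 and 4 without MH34 replicate 1, and that of ER glycosylation was 5 and 4 in the same omissions. In translocation, 6 of 17 fell and 1 rose, in Golgi processing 5 of 11 fell and 1 rose, and in sorting 4 of 25 fell and 1 rose. In folding, 5 of 10 fell, led by SIL1 (−0.61) and ERO1 (−0.59), and PDI1, on chromosome III, rose (0.64). The lower count in folding was 2 without AAC replicate 2, 3 without MH34 replicate 1, and 2 with library size alone. In GPI anchoring, 3 of 20 fell, led by MCD4 (−1.09), and 1 rose, and in ERAD 3 of 17 fell and 1 rose. The lower shares in sorting (16%), GPI anchoring (15%), and ERAD (17.6%) were close to that of all genes (15.7%). With 1 library left out, the lower counts were as low as 3 in translocation (without MH34 replicate 1), 2 in Golgi processing (without either AAC replicate or MH34 replicate 1), 1 in sorting (without AAC replicate 2), and 1 in ERAD (without AAC replicate 1 or MH34 replicate 1). The medians of the sorting, ER to Golgi, GPI, and ERAD lists lay between −0.11 and −0.05 and were above 0 with library size alone.

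Genes of the cell cycle and DNA synthesis were mostly higher, with 13 of 21 higher, 1 lower, and a median of 0.31. All 4 genes of ribonucleotide reductase rose, the enzyme that Hug1 inhibits. RNR3 (YIL066C), the damage-inducible large subunit, rose from 11.9 and 9.83 CPM in AAC to 49.7 and 24.7 CPM in MH34 (log2 fold change 1.76, standard error 0.31, edgeR adjusted p = 0.0029). The small-subunit gene RNR2 (YJL026W) rose from 219 and 193 CPM in AAC to 378 and 321 CPM in MH34 (log2 fold change 0.76, standard error 0.10, edgeR adjusted p = 0.00026). RNR4 (0.66) and RNR1 (0.58) rose by less than 2-fold. The G1 cyclin gene CLN3 (YAL040C) fell from 221 and 227 CPM in AAC to 145 and 130.0 CPM in MH34 (log2 fold change −0.70, standard error 0.11, edgeR adjusted p = 0.00097). Of 20 mating genes, 6 rose and 1 fell, or 12 rose without AAC replicate 1, and 3 of the 6 lie on chromosome III, among them FUS1 (1.49) and KAR4 (1.49), which pheromone induces. The α-specific pheromone gene MF(ALPHA)2 had 8 and 2 counts in AAC and 38 and 46 in MH34, a ratio of 8.9 (95% exact interval 4.61 to 19.2). Its log2 fold change of 3.12 was 4.40 without AAC replicate 1 and 2.44 without AAC replicate 2. Whether some of these few reads belong to MF(ALPHA)1 or to the α-factor leader on the plasmid was not tested.

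Other pathways of uptake and synthesis had smaller or divided changes. Of 20 thiamine genes, 5 rose and 3 fell, or 1 fell without MH34 replicate 2. The near-identical THI5 (1.18), THI11 (1.01), and THI13 (1.34), which make the pyrimidine part of the vitamin, were among the rises, and their split is uncertain. Of 13 genes for ammonium and glutamate, 4 rose and 0 fell, with a median of 0.21. The glutamate dehydrogenase gene GDH3 (YAL062W) rose from 10.9 and 12.7 CPM in AAC to 31.1 and 24.2 CPM in MH34 (log2 fold change 1.23, standard error 0.30, edgeR adjusted p = 0.012), a call that was lost (0.075 without AAC replicate 1, 0.067 without MH34 replicate 1), while GDH1, its paralogue, had a log2 fold change of −0.08 and did not pass. Without MH34 replicate 1, 1 of the 4 rose, and without AAC replicate 2, 2. Of 11 genes for glycerol, 4 rose and 2 fell. The glycerol carrier gene STL1 (YDR536W) rose from 14.1 and 13.2 CPM in AAC to 51.8 and 77.4 CPM in MH34 (log2 fold change 2.25, standard error 0.24, edgeR adjusted p = 0.00014). GPP1 (YIL053W), a phosphatase of glycerol synthesis, fell from 556 and 492 CPM in AAC to 319 and 309.5 CPM in MH34 (log2 fold change −0.74, standard error 0.12, edgeR adjusted p = 0.00073). The count of 4 was 2 without AAC replicate 2.

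At the cell surface, 8 of 30 cell wall genes rose and 6 fell, or 3 fell without AAC replicate 2 or MH34 replicate 1. Besides TIR3 and CSS1, SPI1 (YER150W), a wall protein of stationary phase and weak acid stress, rose from 20.9 and 18.9 CPM in AAC to 96.6 and 107 CPM in MH34 (log2 fold change 2.36, standard error 0.10, edgeR adjusted p = 2.3e-07). CWP1 (YKL096W) rose from 62.6 and 84.7 CPM in AAC to 159 and 299 CPM in MH34 (log2 fold change 1.64, standard error 0.28, edgeR adjusted p = 0.0037). Of 19 plasma membrane pumps and efflux carriers, 3 rose and 6 fell. The weak acid exporter gene PDR12 (YPL058C) fell from 595 and 222 CPM in AAC to 167 and 104 CPM in MH34 (log2 fold change −1.59, standard error 0.44, edgeR adjusted p = 0.028), a call that was lost (0.06 without AAC replicate 1, 0.051 without MH34 replicate 1, 0.15 without MH34 replicate 2) and a value of −0.71 without AAC replicate 1. The sodium pump gene ENA5 (YDR038C), 1 of several near-identical copies in the R64 reference, rose from 4.35 and 2.84 CPM in AAC to 13.4 and 9.04 CPM in MH34 (log2 fold change 1.64, standard error 0.34, edgeR adjusted p = 0.0041). Which copies these strains carry was not tested, so the gene behind these reads is uncertain. Both list medians were below 0 (−0.001 and −0.10) and above 0 with library size alone.

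Genes of protein synthesis and turnover differed from list to list. Of 34 proteasome genes and 10 histone genes, 0 passed the test, with log2 fold changes from −0.18 to 0.15, 1 of the 44 had an unadjusted p under 0.05 in edgeR, and DESeq2 called 0. Of 81 genes for proteins of the large ribosomal subunit, 2 rose and 1 fell, with a median of 0.01, calls that were lost without AAC replicate 1, and of 55 genes of ribosome biogenesis, 10 fell and 1 rose, with a median of −0.21. The 1 of the list that rose, KRR1 (0.88), lies on chromosome III. Further ribosome biogenesis genes of that chromosome were not on the list and were higher as well. Among them were RRP7 (1.18), SPB1 (1.07), BUD23 (0.94), RSA4 (0.76), and PWP2 (0.74). The count of 10 was 2 without AAC replicate 2, 5 without either MH34 replicate, and 2 with library size alone. Of 32 genes of translation initiation and elongation, 6 fell, among them the elongation factor gene YEF3 (−0.63), which had the lowest value, and 2 rose, among them ANB1. The lower count was 2 without AAC replicate 1 or MH34 replicate 2, 3 without AAC replicate 2, and 2 with library size alone, where 6 rose. Of 13 genes for vacuolar and cell surface proteases, 4 rose, with APE3 the highest (0.63), and 3 fell, with LAP3 the lowest (−0.89). The higher count was 2 without either AAC replicate, and the lower count 1 without AAC replicate 2.

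The same contrast at 0.1/h was used to ask which differences depend on the growth rate. In that comparison, ethanol was added to MH34 and is not named for AAC, so the rate and the ethanol cannot be told apart. The change in MH34 differed between the rates for 3212 of 6044 genes (53.1%) and for 1098 of the 2000 genes called at 0.2/h (54.9%). Of the 2000, 1123 passed in the same direction at 0.1/h, 339 in the opposite direction, and 538 did not pass. The chromosome III median was 0.84 at 0.1/h. B184, which was derived from MH34, differed from it at 0.2/h in 1 of 6044 genes (0.0165%), the vacuolar ABC transporter gene BPT1 (YLL015W), and 204 genes had an unadjusted p under 0.05 (edgeR), with 2 called by DESeq2. The count was 15 without MH34 replicate 1 and 0 without MH34 replicate 2.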

How the data were processed

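RNA was sequenced from 12 chemostat cultures, 2 biological replicates in each of 6 groups, with a stranded poly(A) library protocol and paired-end reads. The authors mapped the reads to the R64 genome and deposited raw counts per gene. The submitters' processing notes name TopHat2 2.0.12, Cufflinks 2.2.1, and Subread 1.4.6, and the strand setting of the counter and the treatment of shared reads are not given in the sources used here. Of 7126 genes, 6079 matched RefSeq R64, and the other 1047 held 0.179 to 0.197% of the counts. Genes were filtered with filterByExpr, normalized with TMM, and tested in 1 robust quasi-likelihood fit of all 12 libraries in edgeR 4.0.16 (R 4.3.3), with Benjamini-Hochberg adjustment over 6044 genes. The fit was also run on simulated independent counts. These lack the correlated replicate deviations and the chromosome-wide shift of the real data, so the run does not vouch for the fit here. DESeq2 1.42.0 and other scalings, filters, sets of libraries, and omissions of 1 library were alternatives.

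The members and gene lists were chosen with earlier results of these data known. The lists were written from general knowledge, except the secretory subsystems, whose membership the study gives. Named were the 12 largest rises and falls outside chromosome III and the 6 genes farthest above and below its median (mean of at least 50 counts), up to 4 members of each list past the test, label checks, and genes the study names. Other genes, among them the other members of the hexose carrier, URS1, iron, zinc, phosphate, and hypoxic groups, the regulators, the genes given as not past the test, MRC1, ADY2, GPP1, and BPT1, were chosen after their values were seen, as were the motifs. The labels call the replicates biological, so p-values measure the spread between cultures. Replicates differed by more than sampling noise, the chi-square divided by its degrees of freedom being 22.2 in AAC and 25.6 in MH34. Exact intervals cover counting error only. Standard errors are the absolute log2 fold change divided by the square root of the F statistic of the edgeR test, an approximation.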

Additional observations from a re-analysis of the deposited data

Results flagged for a closer look

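The change in MH34 differed between 0.2/h and 0.1/h for 3212 genes in the edgeR interaction test. Among the 24 genes with the largest changes outside chromosome III, 11 were included. SLZ1 and HXT10 rose more at 0.2/h, by differences of 2.63 and 3.02 on the log2 scale (3.30 and 1.84 at 0.1/h). TIR3 rose less, with a difference of −0.68 (5.29 at 0.1/h). Of the copper genes, FRE1 differed by −2.80 (−0.81 at 0.1/h), FRE7 by −1.91 (−1.60), CTR1 by −1.95 (−0.75), and CTR3 by −1.46 (−0.69), so the falls were deeper at 0.2/h. CSS1 differed by −1.42 (−4.88 at 0.1/h) and TIS11 by −1.79 (−0.19). ZPS1 differed by −2.86, with a log2 fold change of 0.45 at 0.1/h. The tRNA tD(GUC)N differed by 1.08, with a deeper fall at 0.1/h (−2.97). Ethanol was added to MH34 at 0.1/h and is not named for AAC, so rate and ethanol cannot be told apart.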

How the results depend on the processing

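Asking for a fold change of at least 2 as well left 424 genes (346 higher and 78 lower), 68 higher genes on chromosome III, 958 rate-dependent genes, and 0 genes between B184 and MH34. With library size alone, 1621 genes were higher and 493 lower, and with only the 4 libraries compared, 542 were lower. DESeq2 called 1752 genes. B184 differed from MH34 in 2 genes with DESeq2 and in 2 with only the 6 libraries at 0.2/h. With 1 library left out, between 1398 and 1501 genes were called, 730 to 843 higher and 617 to 711 lower, with 131 to 133 higher on chromosome III, 2940 to 3048 rate-dependent, and 0 to 15 between B184 and MH34. In all 4 omissions, 952 of the 2000 genes were called in each. The difference between the chromosome III median and that of the other chromosomes lay between 0.985 and 1.003 in these omissions and between 0.999 and 1.007 in the other alternatives. With the replicate number as a block, 1885 genes were called (1001 higher and 884 lower), and 265 of the 269 named genes past the test remained. Same-numbered replicates of AAC and MH34 correlated in their deviations (0.371), but the labels tie the numbers to no shared day or batch. Of the 269 named genes past the test, 208 to 223 passed with 1 library left out, 217 with only the 4 libraries, 239 with library size alone, and 256 to 269 in the other alternatives, and 0 reversed. The causes were not tested. With 2 replicates a group, log2 fold changes had standard errors with a median of 0.101.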

Other observations

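Genes near chromosome ends differed from the rest outside chromosome III. Of the 171 genes within 20 kb of an end, 35.1% were higher and 12.9% lower in MH34, with a median log2 fold change of 0.29. Of the 4866 genes more than 60 kb from an end, 14.8% were higher and 16.9% lower, with a median of −0.03. Between 20 and 40 kb, 20.8% of 250 genes were higher, and between 40 and 60 kb, 18.4% of 283. Many genes near the ends belong to families with near-identical copies, so their counts are uncertain. HXT13 and MAL32 are examples of genes whose copies lie near the ends of several chromosomes.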
